A study of Mus musculus with 20 samples.

Results

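The data described here are the methylation state of the newborn control mouse liver, read in the 5 libraries labelled Con-d0. The CpGs were chosen by position and depth and not by their level. They are the 820028 autosomal CpGs of GRCm38 (mm10) where none of the 5 libraries fell short of 10 reads, of 2607961 autosomal CpGs with a read in any of them (31.4%). A promoter reached 1 kb up and 1 kb down from the transcription start site, the TSS, and had to hold 3 or more such CpGs, which gave 17378 of the 51229 autosomal genes of the annotation (33.9%). Each promoter was then placed by its mean level under 10%, at 10 to 60% or over 60%.

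The study compared livers of offspring of control dams and of dams kept on a Western diet with late-gestational stress, at birth and at weaning, in 20 libraries. The Con-d0 animals were wild-type C57BL/6J males of the Control treatment at d0, pups of dams that had eaten the control diet and had not been stressed. They were delivered by C-section and their livers were flash frozen. The methods give 5 pregnant dams per group, and the labels do not say which litter each pup came from, so the spread between libraries is that between these 5 animals. The Con-d21 animals, used once below, were wild-type C57BL/6J males of the Control treatment at d21 that had been born naturally and were fasted before they were killed.

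In mammals, methyl groups sit mainly on the cytosine of CpG dinucleotides, where DNMT1 copies them at cell division and DNMT3A and DNMT3B set them anew. Most of the genome is methylated, CpG-dense promoters are as a rule free of methylation in every tissue, and imprinted genes carry it on the copy from 1 parent. The newborn liver is a mixture of hepatocytes, blood-forming cells that still occupy the organ, endothelium, stellate cells, macrophages and bile duct cells. A level of 40% in bulk liver can therefore mean 40% of the DNA copies of every cell type or all copies in some cell types, and these cannot be told apart. RRBS measures DNA and not RNA, so the label of the tissue could not be checked against expressed markers.

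Promoter sequences show what the levels are measured on. For each, the 250 bases before the TSS are given 5′ to 3′ on the strand of the gene (GRCm38), and capitals mark the CpGs of the set. Cltc, the clathrin heavy chain gene of the housekeeping list, stands for the unmethylated CpG-dense promoter (chr11:86757566-86757815, minus strand). Its 19 measured CpGs of 22 had a mean level of 0.0439%. Slc25a31, a germline gene that codes for a mitochondrial ADP/ATP carrier of sperm, has a promoter nearly as dense that was methylated throughout (chr3:40708605-40708854, plus strand). Its 17 measured CpGs of 17 ranged from 66.6% to 95.7%, with a mean of 84.9%. Mcts2, an imprinted gene copied from an RNA into an intron of another gene, lay between them (chr2:152686785-152687034, plus strand). Its 17 measured CpGs of 24 ranged from 21.6% to 49.9%, with a mean of 44.3%.
Cltc: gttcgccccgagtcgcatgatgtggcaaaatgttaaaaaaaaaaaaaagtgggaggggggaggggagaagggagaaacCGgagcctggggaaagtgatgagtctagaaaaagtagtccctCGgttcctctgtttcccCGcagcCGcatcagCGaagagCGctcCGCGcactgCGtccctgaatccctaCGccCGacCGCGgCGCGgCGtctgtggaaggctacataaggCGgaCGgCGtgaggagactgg
Slc25a31: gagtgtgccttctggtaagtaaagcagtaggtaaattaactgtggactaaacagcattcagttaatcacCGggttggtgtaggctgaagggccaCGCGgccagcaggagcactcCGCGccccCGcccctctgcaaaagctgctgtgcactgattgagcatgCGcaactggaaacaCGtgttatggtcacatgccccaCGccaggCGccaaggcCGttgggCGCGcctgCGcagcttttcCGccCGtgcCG
Mcts2: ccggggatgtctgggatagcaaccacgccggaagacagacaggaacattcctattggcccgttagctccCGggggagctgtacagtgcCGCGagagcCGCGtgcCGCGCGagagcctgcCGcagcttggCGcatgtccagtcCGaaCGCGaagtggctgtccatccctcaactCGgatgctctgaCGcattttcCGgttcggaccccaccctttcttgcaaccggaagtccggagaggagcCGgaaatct

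The next 3 promoters, of Dio3, Meis1 and Sptb, were also nearly unmethylated, and that of a liver-secreted protein shows where the method does not reach. Dio3, an imprinted gene for the deiodinase that inactivates thyroid hormone (chr12:110278818-110279067, plus strand), had a mean of 1.21% over 22 measured CpGs of 26. Meis1, a homeobox factor of blood stem cells (chr11:19018986-19019235, minus strand), was at 0% at each of its 14 CpGs. Sptb, the beta spectrin of the red cell membrane (chr12:76710548-76710797, minus strand), had a mean of 0.693% over 10 measured CpGs of 18. Ambp, the precursor of alpha-1-microglobulin and bikunin (chr4:63154800-63155049, minus strand), has 3 CpGs in these bases and 0 of them had the reads. Its promoter level, given below, comes from CpGs farther out.
Dio3: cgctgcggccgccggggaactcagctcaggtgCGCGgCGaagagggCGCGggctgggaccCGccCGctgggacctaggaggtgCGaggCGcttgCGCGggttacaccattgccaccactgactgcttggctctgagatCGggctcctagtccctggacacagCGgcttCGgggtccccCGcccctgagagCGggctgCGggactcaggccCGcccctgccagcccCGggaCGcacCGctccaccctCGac
Meis1: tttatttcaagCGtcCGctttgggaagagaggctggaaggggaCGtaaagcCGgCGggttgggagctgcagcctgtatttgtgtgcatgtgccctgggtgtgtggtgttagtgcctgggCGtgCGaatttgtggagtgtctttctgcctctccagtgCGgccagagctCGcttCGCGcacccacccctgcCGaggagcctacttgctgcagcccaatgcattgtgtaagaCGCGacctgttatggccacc
Sptb: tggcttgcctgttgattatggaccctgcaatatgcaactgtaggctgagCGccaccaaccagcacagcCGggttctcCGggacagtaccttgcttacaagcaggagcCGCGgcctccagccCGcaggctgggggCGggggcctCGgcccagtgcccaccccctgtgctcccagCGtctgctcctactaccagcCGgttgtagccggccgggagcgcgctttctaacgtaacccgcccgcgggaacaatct
Ambp: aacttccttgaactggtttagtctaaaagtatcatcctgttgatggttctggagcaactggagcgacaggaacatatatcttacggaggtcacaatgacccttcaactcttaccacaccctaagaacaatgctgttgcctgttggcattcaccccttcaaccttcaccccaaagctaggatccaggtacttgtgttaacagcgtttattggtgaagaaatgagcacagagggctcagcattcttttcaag

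The 5 libraries had reads at 1916548 to 2146512 CpGs. Their summed counts were 28451406, 30182083, 33976161, 45769589 and 44422275 in replicates 1 to 5, which gave 28.7 to 45.2 reads per CpG of the set on average. At the minimum of 10 reads, 1 read is worth 10 percentage points. The mean level over the set was 36.2% in replicate 1, 36.2% in replicate 2, 36.3% in replicate 3, 36.4% in replicate 4 and 37.8% in replicate 5. Replicate 5 was the highest, and it was so in exons, introns and between genes alike. Without it, the exon, intron and between-gene means given below were 21.9%, 40.9% and 48.7%. CpG by CpG, any 2 libraries differed by 4.85 to 5.72 points on average, and Pearson's r across the CpGs of a pair of libraries was 0.967 to 0.978, a description over sites that share depth and position.

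Newborn liver CpGs were mostly either bare or heavily methylated. Under 10% lay 398425 CpGs (48.6%), over 60% lay 327434 (39.9%), and 94169 (11.5%) lay between. Within the bare class the level was 0% in all 5 animals at 263387 CpGs, 32.1% of the set. The other end was not as complete, since 41 CpGs were at 100% in all 5 libraries, and the mean of the class over 60% was 79.6%. A mean of 40 to 60% was found at 49583 CpGs (6.05%).

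The animals matched one another closely at the bare CpGs and less so in the middle. Of the CpGs under 10%, 95.2% were in this class in each of the 5 libraries, of those over 60% 77.3%, and of those at 10 to 60% 49.9%. The reads themselves scatter values most in the middle. The variance between animals was 1.13 times the binomial variance of the reads under 10%, 1.2 times in the middle and 1.19 times over 60%. The SD of a middle CpG between animals, 9.78 points, was thus close to the 8.92 points that reads of this depth give.

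**Figure D1:**
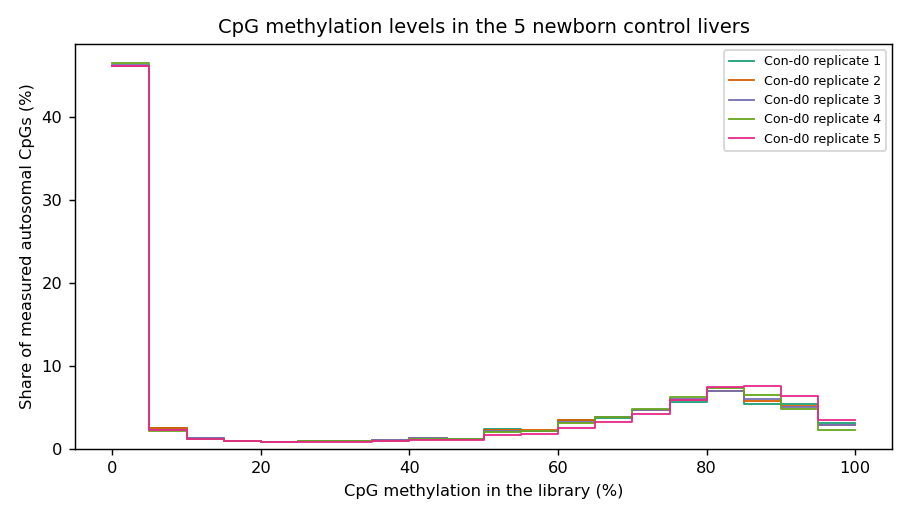
Distribution of the level of the 820028 CpGs in each of the 5 Con-d0 libraries, with a separate line for each library (horizontal axis, percent methylation in the library; vertical axis, percent of CpGs). The CpGs pile up near 0% and in a broad hump above 60%, with 11.2% to 13.6% of them at 10 to 60% in the single libraries.

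The level rose with distance from the TSS, by more than 60 points in all. CpGs within 1 kb of a TSS had a mean level of 6.42% ± 0.101 (SD, n = 5 libraries, as for every ± value of Con-d0 below; 337702 CpGs), and those beyond 50 kb had 69.1% ± 1.36 (79094 CpGs). In bins of 100 bp the lowest level, 4.3% ± 0.0695, lay 250 bp downstream of the TSS, inside the transcribed region. The dip was lopsided. Upstream, the level first passed the midpoint between 0 and its value 4 to 5 kb away (27.5%) at 950 bp from the TSS. Downstream it passed the corresponding value (25%) at 1550 bp.

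Over all CpGs, sorted by distance from the TSS, the upstream flank was the more methylated in each of the 4 bins up to 5 kb. At 500 to 1000 bp the CpGs upstream had 20.3% ± 0.364 and those downstream 7.88% ± 0.139. At 1 to 2 kb the values were 39.3% ± 0.753 and 22.3% ± 0.412. At 2 to 5 kb they were 51% and 44.9%, and at 10 to 50 kb 64.6% and 64.1%. The downstream side was lower in 5 of 5 libraries in each of the 4 bins up to 5 kb. An exact sign-flip test of 5 libraries gives a two-sided p = 0.0625 for each, the smallest that 5 libraries allow, before and after Benjamini-Hochberg adjustment over the 16 such differences computed here. The design can thus not pass 0.05, and the differences are read against their spread: at 500 to 1000 bp the difference, downstream minus upstream, was -12.8 to -12.2 points in the 5 libraries. Around CpG-rich promoters alone the CpGs were taken another way: each CpG within 5 kb was placed by distance from that promoter's own TSS. CpGs nearer to another TSS were thus included, and a CpG could count for several promoters. In 100-bp bins of this profile the upstream side was the higher near the TSS, with 8.23% against 3.83% at 950 bp. The downstream side was the higher in every bin from 2650 to 4950 bp, with 29.6% upstream and 42% downstream at 3050 bp. This profile cannot be set directly against the one over all CpGs.

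**Figure D2:**
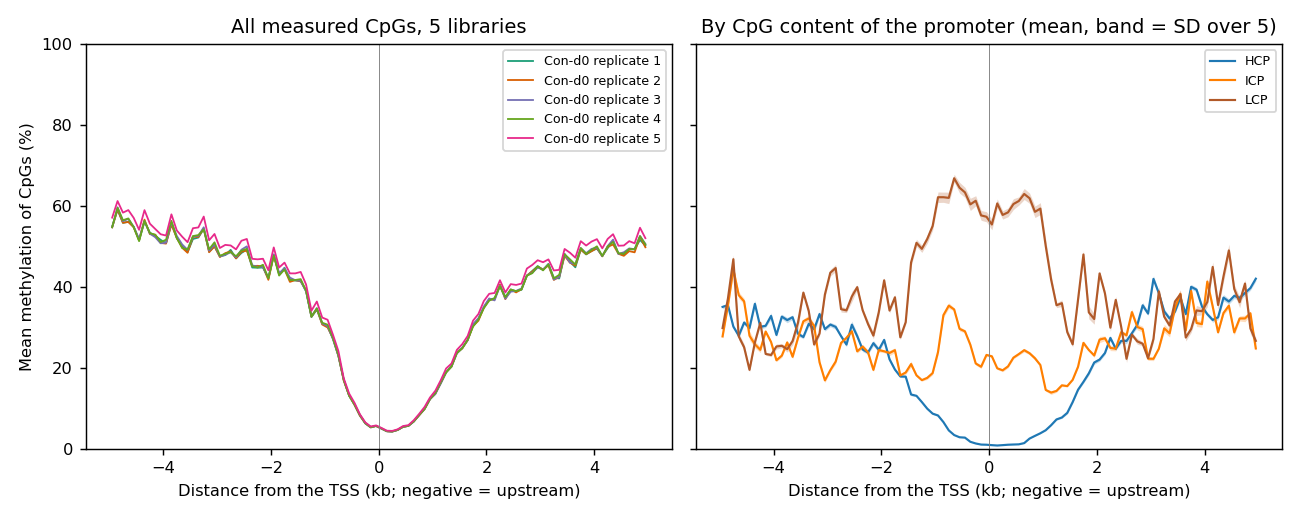
Mean methylation (vertical axis, percent) of CpGs in 100-bp bins by distance from the TSS (horizontal axis, kb, negative upstream). The first panel has 1 line per Con-d0 library, by distance from the nearest TSS. The second panel has the mean by promoter type, which was set from sequence within the promoter, by distance from each promoter's own TSS. The lines of the 5 libraries lie on one another, fall to 4.3% at 250 bp downstream and rise sooner on the upstream side, while in the second panel the line of CpG-rich promoters (HCP) is higher downstream than upstream from 2650 bp outwards.

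Exons carried the least methylation and the space between genes the most. Exonic CpGs had a mean of 22.1% ± 0.294 (301552 CpGs), with 22, 21.9, 21.9, 21.9 and 22.6% in the 5 libraries. Intronic CpGs had 41.3% ± 0.806 (272346) and CpGs between genes 49.1% ± 1.02 (246130). All 5 libraries gave this order, with differences of 18.9 to 20.2 points between intron and exon and of 7.63 to 8.17 points between intergenic and intronic CpGs (exact sign-flip test, two-sided p = 0.0625 each, the smallest possible).

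This order went with where the CpGs of each kind lie. Untranslated exon parts had 7.28% ± 0.118, coding parts 33.5% ± 0.410 and exons of non-coding transcripts 24.7% ± 0.394. Beyond 5 kb from any TSS the spread shrank to 58.9% in exons, 63.5% in introns and 66.3% between genes. When CpG islands and their shores were also left out, the order turned: exons had 74.6% ± 1.04 (44534 CpGs), introns 69.3% ± 1.39 and intergenic CpGs 69.1% ± 1.48. Exons were the highest of the 3 in 5 of 5 libraries, with introns minus exons at -5.66 to -4.76 points (exact sign-flip test, two-sided p = 0.0625). With repeats left out as well, the exons stood at 74.6%, the introns at 67.2% and the intergenic CpGs at 62.9%.

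Local CpG density was the other axis. A CpG island was taken as a run of 500 bp in which G and C make up 55% or more of the bases and CpGs reach 0.65 of the number expected from them, and a shore as the 2 kb beside it. Islands had a mean of 5.38% ± 0.0508 (389360 CpGs), shores 38.9% ± 0.730 and the rest 67.8% ± 1.32. CpGs with no other CpG within 100 bp had 68%, those with 10 to 14 CpGs in that window, themselves included, 35.4%, those with 15 to 19 had 7.53%, and those with 20 or more 1.21%.

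Islands far from a TSS were a mixed group. Within 1 kb of a TSS island CpGs had 1.5%, at 1 to 5 kb 7.27%, at 5 to 50 kb 23.6% and beyond 50 kb 46.2%. The last value is not a middle state, since 43.1% of those CpGs were under 10% and 52.7% over 60%. Beyond 5 kb, island CpGs inside repeats had 74.7% (9792 CpGs) and those outside repeats 15.1% (38485). Outside islands and shores the gap between repeats and other sequence was smaller, 76.2% ± 1.56 against 64.7% ± 1.24. The mean over an autosome ran from 31.3% on chromosome 11 to 38.9% on chromosome 3.

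Most measured promoters of the newborn liver were unmethylated. Under 10% lay 13093 of 17378 promoters (75.3%), at 10 to 60% 1612 (9.28%) and over 60% 2673 (15.4%). The median promoter had a level of 0.464% and 19 CpGs. Library by library, the promoters under 10% numbered 13110, 13120, 13106, 13106 and 13060 in replicates 1 to 5, and those over 60% numbered 2615, 2614, 2616, 2643 and 2745. Replicate 5 had the fewest of the first kind and the most of the second. In all 5 libraries 16472 promoters (94.8%) fell in the same class. The windows are not independent of each other, since 6319 promoters (36.4%) had another measured TSS within 2 kb.

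The limits cut through a continuum at few promoters. Within 2 points of 10% lay 304 promoters, and within 2 points of 60% lay 141. Ankrd13b was the protein-coding promoter just under the lower limit, with 9.98% ± 0.85, and Taf8, a subunit of the general transcription factor TFIID, stood just above it with 10.02% ± 0.757. At Taf8 the 17 CpGs within 500 bp of the TSS had 0.031% and the 12 beyond had 24.2%, so its class comes from the flank. At the upper limit stood Aldh1l1 with 59.98% ± 4.36 and the small nucleolar RNA gene Gm23605 with 60.02% ± 11.4.

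Promoter type told much of the class. CpG-rich promoters hold a 500-bp window with an observed over expected ratio above 0.75 and more than 55% G and C, CpG-poor ones have no window with a ratio of 0.48 or more, and the rest are intermediate. Of 11491 measured CpG-rich promoters, 10942 were under 10%, 435 between and 114 over 60%, with a mean of 2.34%. Intermediate promoters split into 2027, 673 and 1353 of 4053. CpG-poor promoters were turned over, with 118, 501 and 1205 of 1824. RRBS reached only 6.69% of the CpG-poor promoters in the annotation, so the shares over all promoters lean towards the CpG-rich kind.

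Gene type followed the same division. Of 12138 protein-coding promoters 10626 were under 10%, 886 between and 626 over 60%. Promoters of 165 long non-coding RNAs transcribed away from a neighbouring gene fell 159, 4 and 2, those of 1070 antisense transcripts 727, 154 and 189, and those of 1020 long intergenic non-coding RNAs 508, 211 and 301. Processed pseudogenes, copies of messenger RNAs set back into the genome without their promoters, were the most methylated of the gene types named here, with 895 of 1063 over 60%. Their reads can be shared with near-identical copies. Among gene families chosen by name, 0 of 21 promoters of genes named Krt or Krtap, for keratins or keratin-associated proteins, were under 10%. Of these, 17 were over 60%. Of 257 zinc finger genes named Zfp, 236 were under 10%. The clustered protocadherins, cell surface proteins of which neurons choose a few by promoter, had 18 of 24 in the middle class.

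**Figure D3:**
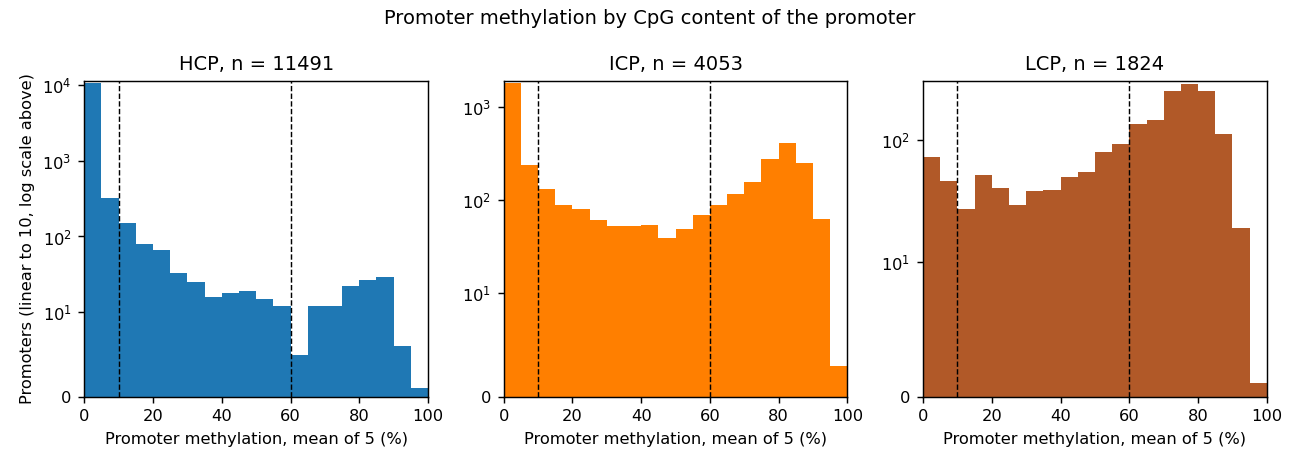
Number of promoters (vertical axis, linear to 10 and logarithmic above) by mean methylation over the 5 Con-d0 libraries (horizontal axis, percent). The panels hold CpG-rich, intermediate and CpG-poor promoters, with the limits of 10% and 60%. CpG-rich promoters stand at 0%, with 10942 of 11491 under 10%, and CpG-poor promoters lie mostly above 60%.

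Middle levels were made up in more than 1 way. Over the 1201 middle promoters with at least 5 CpGs, 414 (34.5%) were even, with at least 75% of their CpGs between 20% and 80%, and 332 (27.6%) were split, with under 25% of CpGs in that range. The other 455 were mixed. These terms were chosen after the data were seen. CpG-rich promoters were more often split (180 of 407) than even (68), and CpG-poor ones more often even (150 of 258) than split (19).

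Split promoters change level inside the window. Chmp2a, a subunit of the ESCRT-III membrane-cutting complex, had 37.8, 35.8, 39.3, 38.6 and 39.2% in the 5 libraries. Its 8 CpGs within 500 bp of the TSS were at 0%, while the 11 beyond were at 65.9%. The promoter of 1600002K03Rik had 52.4% ± 0.616 by the same arrangement, with 0.11% over 7 near CpGs and 89.1% over 10 far ones. Dazl, an RNA-binding protein of germ cells, was turned the other way (chr17:50292636-50294636, minus strand). It had 51.8, 49.8, 50.4, 50.1 and 49.1% over 66 CpGs, the closest to 50% of all protein-coding promoters with at least 10 CpGs. Its 37 CpGs near the TSS had 86.7% and the 29 farther ones 3.76%. Lhb, the beta subunit of luteinizing hormone, had 52.1% ± 4.61, made of 33.8% upstream and 85.1% downstream of the TSS.

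Even promoters hold a middle level at nearly every CpG. Among CpG-rich promoters with at least 10 CpGs, 45 were even, of which 8 were on the list of imprinted genes, another 8 were protein-coding and 29 were of other gene types. They are not all separate sites. The same CpGs serve Igf2r of the list and Gm23833 of the 29, Sgce and Peg10 of the list, and Mir219a-2 and Mir219b of the 29. The 8 protein-coding genes off the list were Prr23a3, Lrrc4, Slc6a16, Henmt1, Gm9857, Pcdhga5, Papolb and Gm10775, named after their values were seen. Slc6a16, a member of the neurotransmitter transporter family, had 45.1, 47.7, 50.6, 49.5 and 46.6%, and all of its 29 CpGs lay between 22.1% and 69.99%. Lrrc4, a synaptic adhesion protein, had 49.6% ± 4.43, and its 11 CpGs lay between 21.9% and 78%. Henmt1, which methylates the ends of piRNAs, shares its 12 CpGs with Gm9857 and had 45% ± 10.04, with 57.5% in replicate 1 and 31.3% in replicate 2.

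Gene lists put names on the classes. Of 646 genes on 25 lists, 388 had a measured promoter, and their classes are read against the 75.3%, 9.28% and 15.4% of all promoters. These shares include pseudogenes and non-coding genes, and protein-coding promoters alone gave 87.5%, 7.3% and 5.16%. The housekeeping list had 23 of 25 measured promoters under 10% and a median of 0.104%. Rplp0, a ribosomal stalk protein, was at 0% in every library. The exceptions were Chmp2a, described above, and Eef1a1, the elongation factor that brings tRNA to the ribosome, with 26.6% ± 6.81 over 4 CpGs.

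Most measured promoters of lipid metabolism genes were under 10% at birth, as were 87.5% of all protein-coding promoters. By type, the protein-coding share under 10% was 96.4% for CpG-rich and 71% for intermediate promoters. Of 15 measured genes of fatty acid oxidation and ketogenesis, 8 CpG-rich and 7 intermediate, 15 were under 10%, with a median of 0.106%. Cpt2, the inner membrane carnitine palmitoyltransferase, was at 0% at 15 CpGs in every library, and Ppara, the nuclear receptor that drives the pathway, had 0.303% ± 0.118 over 38 CpGs. Cpt1a, the outer membrane enzyme that admits fatty acids to mitochondria, was the highest with 6.77% ± 5.6. Its libraries were at 3.73, 4.05, 16.6, 6.16 and 3.35%, with replicate 3 far above the other 4, and the level rests on 7 CpGs. With a minimum of 5 reads Cpt1a had 10.03%, on the other side of the limit.

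Fatty acid and triglyceride synthesis gave 16 of 17 promoters under 10% (94.1%, against 87.5% of protein-coding promoters) and a median of 0.363%. Fasn, the fatty acid synthase, had 0.140% ± 0.125 over 97 CpGs, and Acaca, the acetyl-CoA carboxylase that supplies it, 0.363% ± 0.322 over 46. The exception was Acacb, the carboxylase of the mitochondrial surface, with 18.3, 25.7, 27.3, 20.7 and 28.8% over 5 CpGs. All 5 animals were above 10%. Cholesterol synthesis and uptake gave 17 of 18 under 10% (94.4%) and a median of 0.148%. Hmgcs1, which makes HMG-CoA for sterols, was at 0% at 22 CpGs. Scarb1, the HDL receptor, stood at 15.9% ± 2.82 over 8 CpGs. It fell to 6.09% with a minimum of 5 reads, which brings other CpGs in.

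Bile acid genes were divided, although only 4 of 17 were measured. Amacr, a racemase of bile acid and branched fatty acid breakdown, had 0.217% ± 0.247, and Fgfr4, the hepatocyte receptor for the gut hormone FGF15, 1.45% ± 0.351. Klb, the co-receptor that FGFR4 needs, had 56.6, 54.4, 60.7, 51.8 and 52.2% over 20 CpGs (chr5:65347314-65349314, plus strand). The 5 libraries lay within 10 points, and 18 of the 20 CpGs were within 500 bp of the TSS. Hsd3b7, a steroid dehydrogenase of bile acid synthesis, had 71.7% ± 6.43 over 3 CpGs, none of them within 500 bp.

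Genes of the hepatocyte's secreted proteins were seldom measured, and most of those that were had methylated promoters. Of 27 autosomal plasma protein genes, 7 had a measured promoter, 2 under 10%, 2 between and 3 over 60%, with a median of 59.1% against 0.464% for all promoters. The comparison mixes promoter types, since 4 of the 7 were CpG-poor, 1 intermediate and 2 CpG-rich. Over all measured protein-coding promoters the median was 58.6% for CpG-poor and 1.93% for intermediate ones. The 2 bare ones were the CpG-rich promoters of Apoh, a phospholipid-binding apolipoprotein (0.110% ± 0.105 over 42 CpGs), and Rbp4, the plasma carrier of retinol (0.641% ± 0.303 over 50). Fgb, the beta chain of fibrinogen, had 59.5, 63.9, 65, 67 and 55.4% over 7 CpGs (chr3:83048863-83050863, minus strand). Fgb was over 60% in 3 of 5 libraries.

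The other plasma protein promoters rested on a few CpGs. F2, prothrombin, had 68.3, 58, 63, 59.4 and 64.6% over 7 CpGs, the nearest 773 bp from the TSS. Ambp had 44.4, 48.8, 47.4, 47.7 and 43% over 5 CpGs from 677 bp outwards. Itih1, a hyaluronan-binding inhibitor chain, had 59.1% ± 5.36, and Cfb, complement factor B, 61.1% ± 8.37, each over 3 CpGs. Each of these means lay within 1 SD of 60% except that of Ambp.

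Liver enzymes and transporters were seldom measured, with 6 of 28 genes. Under 10% lay 2 of 2 CpG-rich, 1 of 3 intermediate and 0 of 1 CpG-poor promoters. Among enzymes and transporters, Ass1 and Asl, which make argininosuccinate and then arginine in the urea cycle, had 0.455% ± 0.233 and 0.126% ± 0.0905, and Gcgr, the glucagon receptor, 0.923% ± 0.420. Arg1, the arginase that closes the cycle, had 10.5% ± 3.32. Pck1 and Fbp1, enzymes of gluconeogenesis, had higher levels over few CpGs. Pck1, the first committed enzyme of the pathway, had 56.1, 65.6, 56, 53.7 and 58.2% over 4 CpGs from 12 bp outwards. Fbp1, a later enzyme of the pathway, had 65.6, 58.3, 71.6, 64.5 and 68.7% over 3 CpGs from 685 bp outwards, and 55% when CpGs with 5 reads were let in.

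Of 15 liver transcription factors 14 were under 10%, with a median of 0.459%. By type these were 13 of 13 CpG-rich and 1 of 2 intermediate promoters. Xbp1, a factor of the secretory pathway, had 0.0482% ± 0.0520 over 47 CpGs and Foxa3, a forkhead factor of liver, 3.93% ± 0.655 over 44. The exception was Hnf4a, the nuclear receptor that maintains hepatocyte identity, with 15, 51.1, 36, 48.3 and 58.3%. Replicates 1 and 5 lay farthest apart, and the 5 CpGs had 17.6 reads each on average. On the list of fetal liver genes 9 of 10 were under 10%, among them Lin28b, a block on let-7 maturation, with 0.361% ± 0.217 over 75 CpGs and Hmga2, a chromatin protein of growing tissue, with 0.126% ± 0.0965 over 54. The exception was H19, given with the imprinted genes.

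Blood genes held both bare and intermediate promoters. Of 12 erythroid genes 8 were under 10% and 4 between, with a median of 1.28%. Klf1, the master activator of globin genes, was at 0%, but over 4 CpGs no nearer than 963 bp. Tal1, a blood stem cell and erythroid factor, had 0.133% ± 0.112 over 48 CpGs. The 4 in the middle were Epor, the erythropoietin receptor (11.9% ± 2.68, 5 CpGs), Rhd, the Rh blood group protein (40.1% ± 5.52, 11 CpGs), Ermap, an erythroblast membrane protein (44.1% ± 3.94, 10 CpGs), and Trim10, a RING protein of late red cell maturation (47% ± 5.22, 9 CpGs). Rhd had 32.3, 40.4, 44.1, 37.6 and 46.3%. Ermap had 42.4, 41, 46.6, 40.8 and 49.8%. The lowest animal at either gene was thus above 30%.

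White cell and platelet genes also held both bare and intermediate promoters. Of 14 genes of progenitors, myeloid cells and platelets, 8 were under 10%, 5 between and 1 over 60%, with a median of 0.845%. Hhex, a homeobox factor of liver and blood, had 0.128% ± 0.0364 over 113 CpGs, Meis1 0.198% ± 0.124 and Prtn3, a neutrophil protease, 0.163% ± 0.127. Pf4, a chemokine of platelet granules, had 26.9, 16, 22.2, 22 and 26.6% over 7 CpGs. Itga2b, the platelet integrin alpha IIb, had 18.9, 27.9, 37.8, 29.2 and 25.9%. Cd48, a surface protein of white cells, had 31, 45.7, 41.9, 34.8 and 33.5%, and Cebpe, a factor of late granulocytes, 65.4% ± 2.78 over 16 CpGs. The mean of every gene of the list except Cebpe was thus under 40%.

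Of 5 lymphoid genes 2 were under 10%, among them Vpreb1, a surrogate light chain of early B cells, with 0.230% ± 0.146. Rag1, the recombinase of antigen receptor genes, had 53.7% ± 10.1 and Zap70, a T cell kinase, 63.2% ± 3.59. Of 12 endothelial genes 9 were under 10%. Flt1, a VEGF receptor, had 0.429% ± 0.0955 over 91 CpGs, Eng, a TGF-beta co-receptor, 19.3% ± 5.94, Tie1, a vascular tyrosine kinase, 29.8% ± 8.32, and Robo4, a vessel guidance receptor, 66% ± 4.18 over 4 CpGs, or 51.5% with a minimum of 5 reads. The 2 measured Kupffer cell and macrophage genes were C1qb, a chain of complement C1q, with 39% ± 8.8, and Adgre1, the F4/80 antigen, with 73% ± 6.02. These lists do not measure how many of these cells the livers held.

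Stellate cell and bile duct genes lay under 10% about as often as all promoters (75.3%) and less often than protein-coding ones (87.5%). Of 12 stellate cell and fibroblast genes 9 were under 10%, among them Vim, the intermediate filament vimentin, with 0.0992% ± 0.0922. Col1a1, a chain of type I collagen, had 17% ± 2.57 and Tagln, a smooth muscle actin-binding protein, 24.7% ± 3.42. Of 8 bile duct genes 6 were under 10%, from 0.0553% ± 0.0787 at Sox4, a factor of bile duct development, to 42.1% ± 4.06 at Cldn4, a tight junction protein, over 14 CpGs.

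**Figure D4:**
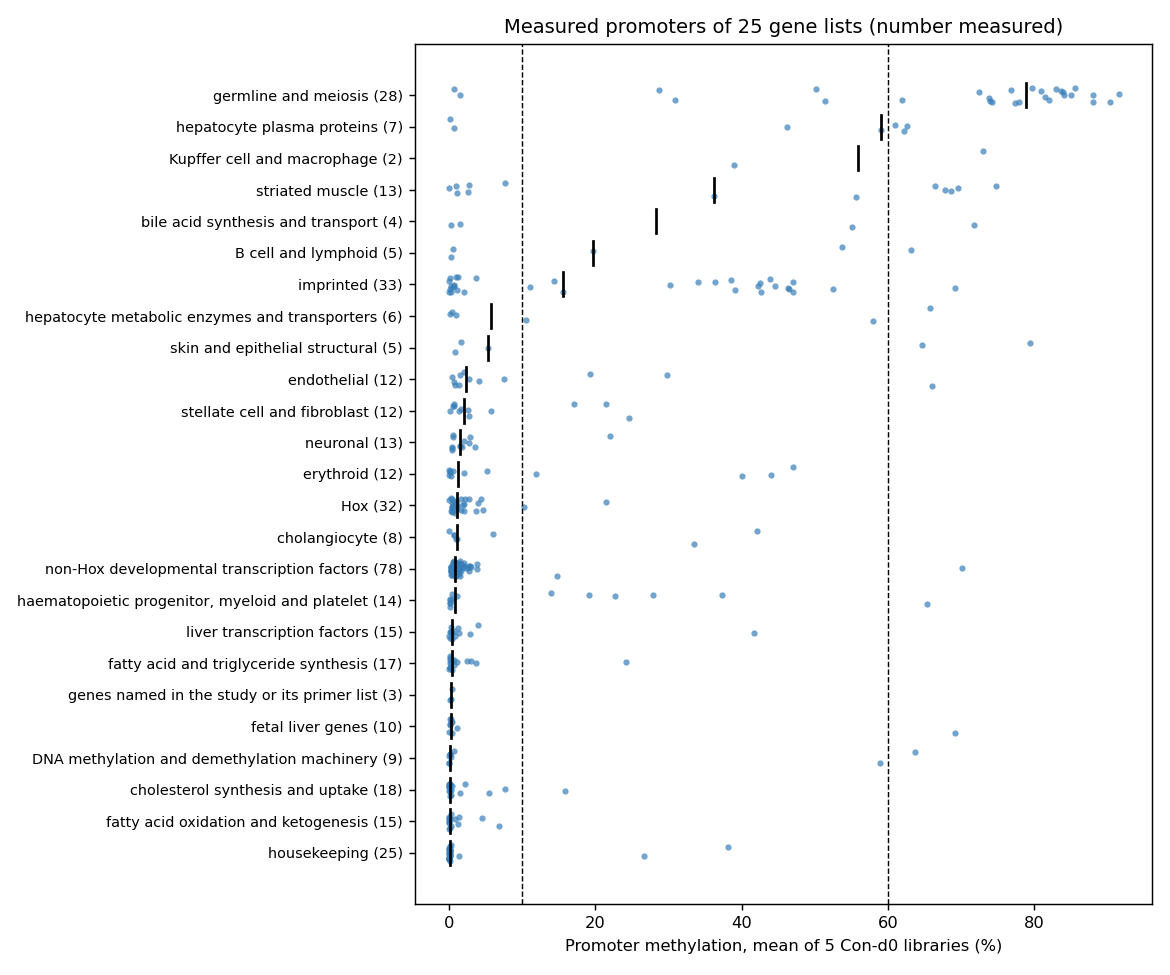
Promoter methylation (horizontal axis, percent, mean over the 5 Con-d0 libraries) of the measured members of the gene lists, 1 point per promoter and 1 row per list. Points of most lists crowd at 0%, those of imprinted genes other than H19 fill the range up to 52.6% and those of germline genes lie mainly above 60%.

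Genes of other tissues differed from list to list. Of 13 neuronal genes 12 were under 10%, with a median of 1.57%. Map2, a dendrite microtubule protein, had 0.383% ± 0.213 over 60 CpGs, and Camk2a, a kinase of synapses, stood highest with 22% ± 1.94. Muscle genes were more divided, with 6 of 13 under 10%, 2 between and 5 over 60%. Ckm, the muscle creatine kinase, had 0.0431% ± 0.0964, Acta1, skeletal muscle actin, 36.3% ± 1.41, Pygm, muscle glycogen phosphorylase, 55.7% ± 2.4, and Myog, a factor of muscle differentiation, 69.6% ± 3.45 over 7 CpGs. Krt10, a keratin of the skin surface, reached 79.4% ± 6.85, while Cdx2, a gut factor, had 0.847% ± 0.355. In the muscle list 4 of 4 CpG-rich members were under 10%.

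Developmental regulators were nearly all bare, but so were 87.5% of protein-coding promoters and 96.4% of the CpG-rich ones among them. Of the 32 measured Hox promoters 26 were CpG-rich, and of the 78 of other factors 66 were. Of 32 measured Hox genes 30 were under 10%, with a median of 1.06%, from 0.0706% ± 0.107 at Hoxd8 to 10.2% ± 2.82 at Hoxa5 and 21.4% ± 1.28 at Hoxa6. Of 78 other developmental transcription factors 76 were under 10%, with a median of 0.882%. Isl1, a factor of motor neurons and pancreas, had 0.222% ± 0.162. The highest was Sox10, a neural crest factor, with 70.2% ± 3.45 over 9 CpGs, the nearest 638 bp away. Within 2 kb of the TSS its level was 25%. Pax8, a factor of thyroid and kidney, had 14.8% ± 3.48.

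On the list of DNA methylation and demethylation machinery 7 of 9 measured promoters were under 10%. This share is near the 75.3% of all promoters and below the 87.5% of protein-coding ones. Dnmt3a was at 0% over 8 CpGs. Dnmt3l, the cofactor of germ cell methylation, had 76.4, 49.1, 49.7, 52.4 and 67.4% over 5 CpGs with none within 500 bp. Zbtb38, a zinc finger protein that binds methylated DNA, had 65.3, 65.1, 63.4, 61.6 and 63.5% over 11 CpGs. The spread of Dnmt3l was the larger by far, 12.2 points against 1.49. Of 6 genes that the study names in its text or its primer list 3 were measured, Fasn and Acaca among them, and each was under 10%.

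Imprinted genes were often in the middle class. Of 33 measured promoters 14 were under 10%, 18 between (54.5%, against 9.28% of all promoters) and 1 over 60%. Over 60% stood H19, the maternally expressed non-coding RNA, with 64.1, 66.7, 66.7, 72.7 and 75.6% over 3 CpGs, the nearest 714 bp away. The bare ones ran from Herc3 with 0.0666% ± 0.0643 to Kcnq1, a potassium channel, with 3.65% ± 0.776, and Ube3a, a ubiquitin ligase imprinted in neurons, had 0.0838% ± 0.0913. Not every imprinted gene has its mark at its own start site, and a gene's 5′ end in the annotation can lie apart from it.

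From 30% to 50% lay a dense group. Sgce, a sarcoglycan, and Peg10, a gene of retroviral origin that the placenta needs, start beside each other and share 13 CpGs, with 58.2, 42.2, 41.3, 42.8 and 50.7%. Their 13 CpGs lay between 44.3% and 48.6% on average over the animals. Nnat, a membrane proteolipid, had 55.5, 41.1, 41.1, 42.1 and 52.8% over 29 CpGs, which lay between 42.1% and 53.9%. Every CpG of these windows thus sat within 10 points of 50%.

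Airn, the non-coding RNA that silences Igf2r, had 38, 44.5, 45.4, 58.2 and 45.8% over 14 CpGs. Gnas, which codes for the stimulatory G protein alpha subunit, had 33.3, 42.5, 52.6, 52.9 and 41.7% over 6. Mcts2 had 43.6, 47.4, 40.4, 41.8 and 40.2%. Nap1l5, a nucleosome assembly protein, had 41.1, 34.3, 38.9, 38.7 and 40.1% over 18 CpGs. The level of Mcts2 and Nap1l5 varied by 3.0 and 2.61 points between animals, that of Airn and Gnas by 7.34 and 8.25.

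Other imprinted promoters in this group were those of Slc38a4, an amino acid transporter (42.2% ± 5.2), Kcnq1ot1, a silencing RNA (39.2% ± 8.99, 7 CpGs from 932 bp outwards), Peg13, a non-coding RNA (36.4% ± 11.7), Zrsr1, a splicing factor copy (34.1% ± 2.67 over 40 CpGs), and Meg3, a maternally expressed RNA (30.2% ± 11.6). Magel2 and Mkrn3, neighbours on chromosome 7, had 44% ± 4.35 and 42.5% ± 2.04. They were not even: Mkrn3 had 12.5% near the TSS and 77.5% beyond 500 bp, and Magel2 16.4% and 55.8%. Plagl1, a zinc finger growth regulator, had 15.6% ± 4.7, Peg12 14.4% ± 2.41 and Grb10, an adaptor that restrains growth signals, 11% ± 1.47. Of the 18 middle promoters 12 were even by the measure above, 5 mixed and 1 split.

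Igf2r, the receptor that clears IGF2, was both near 50% and among the most variable promoters (chr17:12768664-12770664, minus strand). The 5 animals had 61.7, 66, 55, 36.2 and 43.9% over 10 CpGs, a mean of 52.6% ± 12.4. Peg13 had 25.7, 55.8, 36.5, 34.9 and 29%. Meg3 had 20.7, 15.3, 42.6, 34.5 and 37.8%. The animals did not keep 1 order across these genes: replicate 2 was highest at Igf2r and Peg13 and lowest at Meg3.

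**Figure D5:**
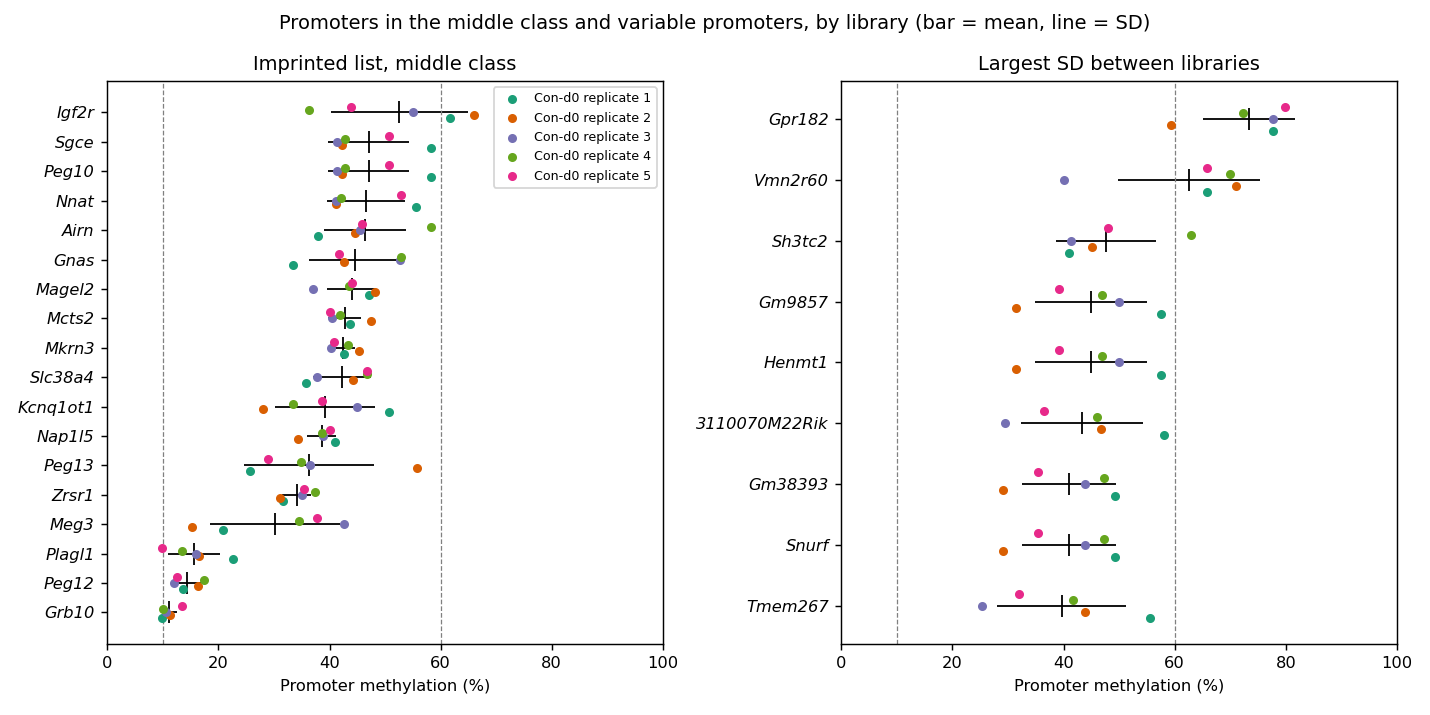
Promoter methylation (percent) in each of the 5 Con-d0 libraries, 1 point per library, with a bar for the mean and a line for the SD. The first panel holds the 18 imprinted promoters of the middle class. The second panel holds the most variable protein-coding promoters with at least 10 CpGs, without those of the first. In the first panel Sgce, Peg10, Nnat, Airn and Mcts2 gather between 38% and 58.2%, and Igf2r, Peg13 and Meg3 spread the most.

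Germline and meiosis genes were the most methylated list. Of 28 measured promoters 22 were over 60% (78.6%, against 15.4% of all promoters), 4 between and 2 under 10%, with a median of 78.9%. Ddx4, an RNA helicase of germ cells, had 84.8, 76.2, 79.1, 79.2 and 79.4% over 16 CpGs. Sycp2, a protein of the chromosome axis in meiosis, had 78, 76.2, 75.1, 77 and 78% over 42. Hormad1, a checkpoint protein of that axis, had 85.1, 84, 82.6, 82.8 and 83.9% over 15. The 3 genes thus varied by 3.12, 1.25 and 0.996 points between animals.

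Others of the list stood higher. Slc25a31 had 84% ± 2.73 over 29 CpGs, Asz1, a protein of the piRNA pathway, 85.7% ± 2.47 over 17, and Rpl10l, a ribosomal protein copy used in sperm formation, 88.1% ± 2.65 over 23. Tuba3a, a testis tubulin, had the highest mean, 91.6% ± 1.75, but it belongs to a family of near-identical copies, so its reads are uncertain. Mael, which silences transposons in germ cells, had 78% ± 2.44. The 4 in the middle were Dazl, Smc1b, Pou5f1 and Dppa3. Dppa3, a protein of the egg and primordial germ cells, had 51.5% ± 9.47 over 5 CpGs. Smc1b, a meiotic cohesin subunit, had 30.9% ± 2.37, with CpGs from 0.952% to 74.9%, and Pou5f1, the pluripotency factor OCT4, had 28.7% ± 7.53 over 3 CpGs. Under 10% stood Meiob, a meiotic recombination protein, with 0.654% ± 0.183 over 24 CpGs, and Tex15, which directs methylation to transposons, with 1.49% ± 0.314 over 19 CpGs from 635 bp outwards.

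Methylation of CpG-rich protein-coding promoters was rare. Over 60% stood 46 of them, beside 8997 under 10% and 288 between. Of the 46, 22 had no measured CpG within 500 bp of the TSS, and 23 had fewer than 10 CpGs. At least 10 CpGs, 3 of them near the TSS and these over 60%, were found at 20, of which 7 were on the germline list. Hsf5, a heat shock factor family member of testis, had 92.9, 92.7, 89.2, 89.3 and 90.6% over 30 CpGs (chr11:87616164-87618164, plus strand). Msh4, a mismatch repair homologue of meiosis, had 86.1% ± 1.12 over 30, Fkbp6, a co-chaperone of spermatocytes, 84.1% ± 2.66 over 25, and Hist1h2ba and Hist1h2aa, the neighbouring testis histones that share 21 CpGs, 85.4% ± 2.14. Rad51c, a recombination protein of all dividing cells, shares its 11 CpGs with Tex14 of germ cells at 84% ± 3.65. Sfi1 had 78.5% ± 0.887, but with 738 reads per CpG it is far above the depth of other promoters, and its reads may be of several copies. This group was formed after the values were seen.

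The reverse case, a CpG-poor protein-coding promoter under 10%, was met 75 times. Baz2a, a chromatin remodelling protein of the nucleolus, had 0.386% ± 0.176 over 23 CpGs. Hpn, hepsin, a membrane protease of hepatocytes, had 6.74, 8.63, 12.6, 5.16 and 7.5% over 15 CpGs, and 19% with a minimum of 5 reads. In the CpG-poor class 297 of 620 measured protein-coding promoters were over 60%.

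Among protein-coding promoters with at least 10 CpGs the highest were Usp14, a proteasome-bound deubiquitinase, with 91.8% ± 3.09, Gm20662 with 91.4% ± 2.32 and Hsf5. The 11 CpGs of Usp14 all lie from 634 bp outwards, so its level says nothing of the start site itself. Tmprss12, a serine protease of sperm, had 89.7% ± 2.79 over 16 CpGs. Close to 50%, beside those given above, were Tekt2, a tektin of cilia (51.2% ± 4.67), Oasl1, a restraint on interferon (47.6% ± 6.79), Sh3tc2, a Schwann cell endosome protein (47.7% ± 9.02), and Lmod1, a smooth muscle leiomodin (52.8% ± 3.62).

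Among protein-coding promoters with at least 10 CpGs, Vmn2r60 differed the most between animals. Vmn2r60, a pheromone receptor gene of a large family with near-identical copies, had 65.8, 71, 40, 70 and 65.8% over 10 CpGs with 12.6 reads each. Tmem267 and its head-to-head neighbour 3110070M22Rik share most of their CpGs and moved together. Tmem267 had 55.5, 43.9, 25.3, 41.7 and 32.1% over 41 CpGs, and 3110070M22Rik had 58.1, 46.8, 29.4, 46.1 and 36.5% over 45. Replicate 1 was highest and replicate 3 lowest at both. The SD at Tmem267 was 11.6 points. Snurf, the upstream reading frame of the imprinted Snrpn locus, shares its CpGs with Gm38393 and had 49.3, 29.1, 43.9, 47.3 and 35.5%. Gpr182, a receptor of vessel endothelium, had 73.4% ± 8.29.

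Set beside weaned liver, the newborn state held slightly more bare promoters and fewer methylated ones. The 16787 promoters that met the rule on CpGs where every Con-d0 and Con-d21 library had 10 or more reads were compared. Under 10% lay 76.1% ± 0.134 of them at d0 and 75.1% ± 0.0498 at d21 (SD, n = 5 each; exact permutation test, two-sided p = 0.00794, Benjamini-Hochberg adjusted over the 3 classes p = 0.0119). Over 60% lay 14.7% ± 0.312 and 16% ± 0.0694 (exact permutation test, two-sided p = 0.00794, adjusted p = 0.0119). No Con-d0 library overlapped a Con-d21 library in either share. The middle class held 9.15% ± 0.199 and 8.96% ± 0.0574 (exact permutation test, two-sided p = 0.0952), and this difference turned round when only promoters with at least 10 CpGs were counted (-0.660 points) or with a minimum of 20 reads (-0.303 points). With at least 10 CpGs the difference over 60% shrank from -1.25 to -0.299 points. Pups at d0 and d21 came from different dams and differed in delivery and feeding, which cannot be told apart from age.

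The classes at birth were largely those at weaning. By group means, 97.8% of the promoters under 10% at d0 were under 10% at d21, 96% of those over 60% were over 60%, and 74% of the middle class stayed in it. From the middle 285 went over 60% and 109 went under 10%. A jump across the whole middle was made by 2 promoters, named after their values were seen. Dnajb3, a co-chaperone gene, went from 2.98% ± 1.27 to 61.4% ± 9.41 over 10 CpGs (chr1:88204782-88206782). Gm20511, an antisense transcript, went from 62.2% ± 8.82 to 9.92% ± 3.72 over 12 CpGs (chr11:103191896-103193896).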

How the data were processed

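RRBS was read in liver DNA of the 5 Con-d0 animals, and the 5 Con-d21 libraries were used for 1 comparison. Groups and replicate numbers came from the sample labels. For each library the authors deposited CpG positions with the count of methylated and of unmethylated reads and the percent methylation, without a coverage minimum and not normalized. The tools in the submitters' processing notes are Bismark, BWA, FastQC and Trim Galore, with no version, and the build is mm10. Deduplication and strand merging are not given in the sources used here, and PCR duplicates would make reads less independent than their number.

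The percent per CpG was recomputed from the counts that the authors deposited. Autosomal CpGs were kept where each of the 5 libraries had 10 or more reads. Genes, exons and TSSs (the 5′ end of the gene) came from GENCODE M21 on GRCm38, and repeats were the lower-case bases of that reference. A promoter level is the mean over its CpGs in each library and then over libraries. SDs are between libraries. Differences within libraries were compared with exact sign-flip tests and Con-d0 with Con-d21 by exact permutation tests of the means. Both are two-sided, with Benjamini-Hochberg adjustment. The steps were tested on simulated data. Python 3.11.15 was used with numpy 2.4.6, pandas 2.3.3 and matplotlib 3.10.9.

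Named are, for each list, the lowest and the highest promoter and up to 3 middle ones closest to 35%, all middle promoters of the imprinted list, the 10 highest, the 10 closest to 50% and the 10 most variable protein-coding promoters with at least 10 CpGs, and those beside the class limits. The text gives a part of these and adds some list members and others chosen after their values were seen. Sequences were to be those of the member with the most measured CpGs on each of 6 lists, with members on chromosome 18 or with an exon in the 250 bases skipped, and Mcts2 was added. The CpGs, promoter classes and lists were chosen with earlier results of these data known. Alternatives were other minimums, windows, limits, TSS sets, pooled reads, and each library left out. An item of the lists is not reported here.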

Additional observations from a re-analysis of the deposited data

Results flagged for a closer look

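Replicate 5 stood apart from the other 4 Con-d0 libraries, in that its gap to the nearest of them, divided by the whole range, passed Dixon's 95% critical value of 0.71 for 5 samples. This was so for 9 of 11 levels and shares over the whole set. The mean level was 37.8% in replicate 5 and 36.2% to 36.4% in the others over all CpGs (ratio 0.879), 22.6% against 21.9% to 22% in exons (0.895), 42.8% against 40.9% to 41.1% in introns (0.887) and 50.9% against 48.5% to 48.9% between genes (0.845). It was 6.6% against 6.36% to 6.39% within 1 kb of a TSS (0.865), 71.5% against 68.3% to 68.8% beyond 50 kb (0.854) and 70.1% against 67% to 67.4% outside islands and shores (0.865). The share of promoters under 10% was 75.2% against 75.4% to 75.5% (0.767) and the share over 60% was 15.8% against 15% to 15.2% (0.779). These values share CpGs, so they are not 9 separate observations, and the cause was not tested.

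Of 158 promoters named, 7 had 1 library apart by the same measure, where chance marks about 1 in 20. Replicate 3 stood apart at Cpt1a, with 16.6% against 3.35% to 6.16% (0.788), and at Vmn2r60, with 40% against 65.8% to 71% (0.832). Replicate 1 did so at Epor, with 16.6% against 10.1% to 11% (0.863), and at Myog, with 63.7% against 69.9% to 72.3% (0.714). Replicate 4 did so at Asz1, with 81.3% against 86.1% to 87.5% (0.766). Replicate 5 did so at Acta1, with 33.8% against 36.6% to 37.1% (0.870), and at Ckm, with 0.216% against 0% in each of the others (1).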

How the results depend on the processing

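Most promoters were under 10%, and exons were below introns and introns below intergenic CpGs, under every alternative run. The middle class outnumbered that over 60% among protein-coding genes, with at least 10 CpGs and with limits of 20% and 80%. A minimum of 5 reads gave mean levels of 22.9% in exons, 42.3% in introns and 6.72% within 1 kb of a TSS. A minimum of 20 reads gave 20.6%, 38.1% and 45.2% in exons, in introns and between genes, 5.82% within 1 kb and 67.3% beyond 50 kb, with 234756, 52517 and 159827 CpGs in the 3 classes and 1572 promoters over 60%. Reads pooled over the libraries gave 20.7%, 39.6%, 47.1% and, within 1 kb, 7.94%. Protein-coding genes alone gave 21.5%, 40.03%, 47.6%, 2.79% within 1 kb and 65.8% beyond 50 kb, with 886 promoters in the middle and 626 over 60%. With every transcript start as a TSS the levels were 10.1% within 1 kb and 72.5% beyond 50 kb.

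Windows of 500 bp on each side gave 1040 middle promoters, and windows of 2 kb gave 2789 and 4095 over 60%. At least 5 CpGs left 1696 over 60%, and at least 10 left 668 in the middle and 502 over 60%. Limits of 20% and 80% gave 2589 and 1167. The share under 10% ran from 65.6% to 90.7% over these choices. With each library left out in turn the promoter counts were 13100 to 13273, 1622 to 1697 and 2654 to 2907, the CpG counts 399224 to 430429, 94992 to 102545 and 325034 to 362784, and the means 21.9% to 22.4% in exons, 40.9% to 41.9% in introns, 48.7% to 49.7% between genes, 6.37% to 6.55% within 1 kb and 68.5% to 69.3% beyond 50 kb. Fewer libraries let more CpGs pass. The differences within libraries kept their sign in these fits, which were chosen after seeing the data.

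Against Con-d21, the middle share differed by 0.508 points with a minimum of 5 reads (exact permutation test, adjusted p = 0.00794), by -0.303 with 20 reads (adjusted p = 0.00794) and by -0.660 with at least 10 CpGs (adjusted p = 0.00794), and by 0.160 to 0.291 with a library left out, the highest without Con-d0 replicate 5. The cause was not tested. The other shares differed by 0.986 to 1.10 and by -1.39 to -1.22 points with a library left out. Under a replicate block the differences were 1.05 and -1.25 points (exact sign-flip test of 5 pairs, adjusted p = 0.0938 each, smallest unadjusted p 0.0625). The main test used no block, since the pups at d0 and d21 came from different dams. Deviations of same-numbered libraries correlated by 0.00161 to 0.0250 and those of the other pairs by -0.0323 to 0.0133. Whether the replicate number stands for something shared was not tested.

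Of the 158 promoters named, 9 changed class with 5 reads, 9 of 123 measured with 20, 5 of 130 in windows of 500 bp, 9 in windows of 2 kb and 4 to 8 without 1 library. Without replicate 1, Scarb1 had 6.47%, Cpt1a 11.5%, Grb10 7.54% and 1600002K03Rik 65.8%. Without replicate 2, Robo4 had 47.3%, Hpn 18.7% and Hoxa5 9.15%, and without replicate 3, Fbp1 had 53.7%. The others changed by under 5 points, at a limit. Robo4 had 51.5% with 5 reads. Epor had 8.38% and Fbp1 55% with 5 reads. With 20 reads Mkrn3 had 76.3%, Chmp2a 88.1%, Trim10 69.4% and Zap70 58.3%. Within 500 bp Hoxa5 had 8.19%, and within 2 kb Grb10 had 2.36%, Gcgr 11.1% and Ckm 15%. RRBS reads few CpG-poor promoters, and at 10 reads a CpG level moves in steps of 10 points, so single CpGs and promoters of 3 to 5 CpGs bear little weight.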
